A study of Mus musculus with 24 samples.

Results

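The heat shock protein genes described here are 9 named members, Hspa1a, Hspa1b, Hspa8, Hsp90aa1, Hsp90ab1, Hsph1, Dnajb1, Hspd1 and Hspe1, taken by gene symbol from 55335 genes in the blood tables and from 33967 gene names in the cell surface tables. Hspa1a and Hspa1b are also given as a sum, because the copies are nearly identical in sequence. The members were chosen by their levels and differences in these data, and since no single comparison is recorded for that choice, the blood and surface values are both taken as used. Their levels and fold changes are therefore given as a description. Where a fit over all genes also called members, their count stands beside the share of all genes called and nothing is read from it, and tests are read only for chaperone genes outside the 9.

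All samples were from mice. The blood samples were 9 total RNA libraries from wild type peripheral blood mononuclear cells (PBMC), 3 in each of the treatment groups that the labels call ct, WT and Y, codes whose meaning the labels do not give. The surface samples were 15 libraries of RNA amplified in place from the outside of intact fixed cells of C57BL/6 mice with genotype WT. Splenic B cells, T cells and natural killer (NK) cells gave 3 libraries each. The T cells were enriched with a CD8 isolation kit. Haematopoietic stem and progenitor cells (HSPC) and monocytes, also 3 libraries each, came from bone marrow. Tissue and cell type therefore cannot be told apart where HSPC are compared with the spleen cells. The study states that no current approach, its own included, removes all risk of contamination by RNA from inside cells. How much of the member RNA lay outside the cells was not tested. By the study's methods a separate sequencing platform was used for monocytes alone, so platform and cell type cannot be told apart for them. The labels do not say whether the PBMC replicates came from separate animals, and the tests then measure only the spread between these libraries, which may be technical.

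Heat shock proteins are molecular chaperones that hold unfolded proteins, help them fold and pass them to the degradation machinery. HSP70 proteins work in cycles of ATP binding that J-domain proteins start and nucleotide exchange factors end, HSP90 proteins finish the folding of kinases and hormone receptors, and the HSP60 and HSP10 pair forms a folding chamber in mitochondria. Some members are made in every cell, while others are switched on when heat shock factor HSF1 binds inverted repeats of the letters GAA, called heat shock elements, in their promoters.

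The upstream sequences of both inducible HSP70 genes are shown first, because they show how alike the copies are even outside the transcribed part. Hspa1a lies on mm10 at chr17:34969190-34972156 and Hspa1b at chr17:34956436-34959238, both on the minus strand. The lines give the 250 bases upstream of each RefSeq start on GRCm38.p6, chr17:34972157-34972406 and chr17:34959239-34959488, 5′ to 3′ on the minus strand, with the heat shock element letters GAANNTTC in capitals.
Hspa1a: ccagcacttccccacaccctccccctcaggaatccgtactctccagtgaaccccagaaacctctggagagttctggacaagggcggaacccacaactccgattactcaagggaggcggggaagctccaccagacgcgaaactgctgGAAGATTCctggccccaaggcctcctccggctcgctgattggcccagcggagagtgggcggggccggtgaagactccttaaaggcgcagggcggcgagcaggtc
Hspa1b: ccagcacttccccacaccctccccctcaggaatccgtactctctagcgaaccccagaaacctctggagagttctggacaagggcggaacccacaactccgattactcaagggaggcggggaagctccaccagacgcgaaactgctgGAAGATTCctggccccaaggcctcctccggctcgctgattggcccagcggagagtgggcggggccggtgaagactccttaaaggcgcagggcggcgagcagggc
Counted from 1 at the 5′ end and with the Hspa1a base first, the pair differs at C44T, T47C and T249G. The capitals are the same in both. Of the 31-base words in the transcripts of Hspa1a, 63.8% also occur in Hspa1b, and 67.7% of those of Hspa1b occur in Hspa1a, so the division of reads between them is uncertain and the sum is the safer value.

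Searching both strands for GAANNTTC and TTCNNGAA, each its own reverse complement, found a match in the RefSeq windows of Hspa1a, Hspa1b, Hsph1, Hspe1 and Hspd1, and none in those of Dnajb1. RefSeq windows were matched for 6 of the 9 members. Windows with either motif make up 12.8% of 32851 windows of this length, and 0.466% hold the triple form, GAANNTTCNNGAA or TTCNNGAANNTTC. The stretches that follow show the simple form upstream of the RefSeq start of Hsph1 (chr5:149636351-149636380, minus strand) and the triple form upstream of Hspe1 (chr1:55088053-55088082, plus strand) in capitals. The GENCODE start of Hsph1, at position 149636376, is further upstream, so the marked letters lie inside the gene as GENCODE annotates it. The Hspe1 stretch lies in an exon of the transcript Hspd1-202 and, on the other strand, in a window of Hspd1, which starts close by in the opposite direction.
Hsph1: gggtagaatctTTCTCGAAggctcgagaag
Hspe1: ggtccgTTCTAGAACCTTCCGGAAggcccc
A match of letters is a description of the window, not a binding site.

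In PBMC, the inducible HSP70 genes were lowest in the Y libraries. Hspa1a and Hspa1b encode nearly identical stress-inducible HSP70 proteins. Their summed level, in CPM (counts scaled by TMM to a library size of 1000000), was 15, 13.3 and 15.7 in ct, 11.8, 12.7 and 14.7 in WT, then 6.76, 7.03 and 6.58 in Y. The means were 14.7 ± 1.19 in ct, 13.1 ± 1.5 in WT and 6.79 ± 0.224 in Y (SD, n = 3 each). The Y libraries lay below every other library, and ct and WT overlapped. The edgeR log2 fold change of the sum was −1.11 ± 0.13 (SE) for Y against ct, 0.462 times the ct level, −0.93 ± 0.13 for Y against WT and −0.18 ± 0.11 for WT against ct. In bulk samples, fewer cells of a type and less RNA per cell cannot be told apart.

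Hspa1b carried the larger part of this difference. Its expected counts were 86, 54 and 86 in ct, 71, 55 and 47 in WT, then 13, 29 and 28 in Y, and its log2 fold change was −1.45 ± 0.17 for Y against ct and −1.03 ± 0.18 for Y against WT. Hspa1a had 40, 35 and 46 counts in ct, 37, 45 and 57 in WT, then 18, 25 and 23 in Y, with log2 fold changes of −0.63 ± 0.25 and −0.81 ± 0.25. Both genes were lower in all 3 Y libraries than in any other on the CPM scale. In WT replicate 3, Hspa1a reached 8.06 CPM against 4.04 and 5.70 in the other WT libraries, and Hspa1a for WT against ct went from 0.17 to −0.08 without it and to 0.41 without WT replicate 1. Hspa1b had a log2 fold change of −0.42 ± 0.14 for WT against ct, with every WT library (6.65 to 7.75 CPM) below every ct library (8.09 to 10.2 CPM), while in TPM these groups overlapped (0.62 to 0.84 and 0.79 to 1.16). The unequal division between the copies cannot be separated from the way RSEM assigns reads that fit both.

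**Figure D1:**
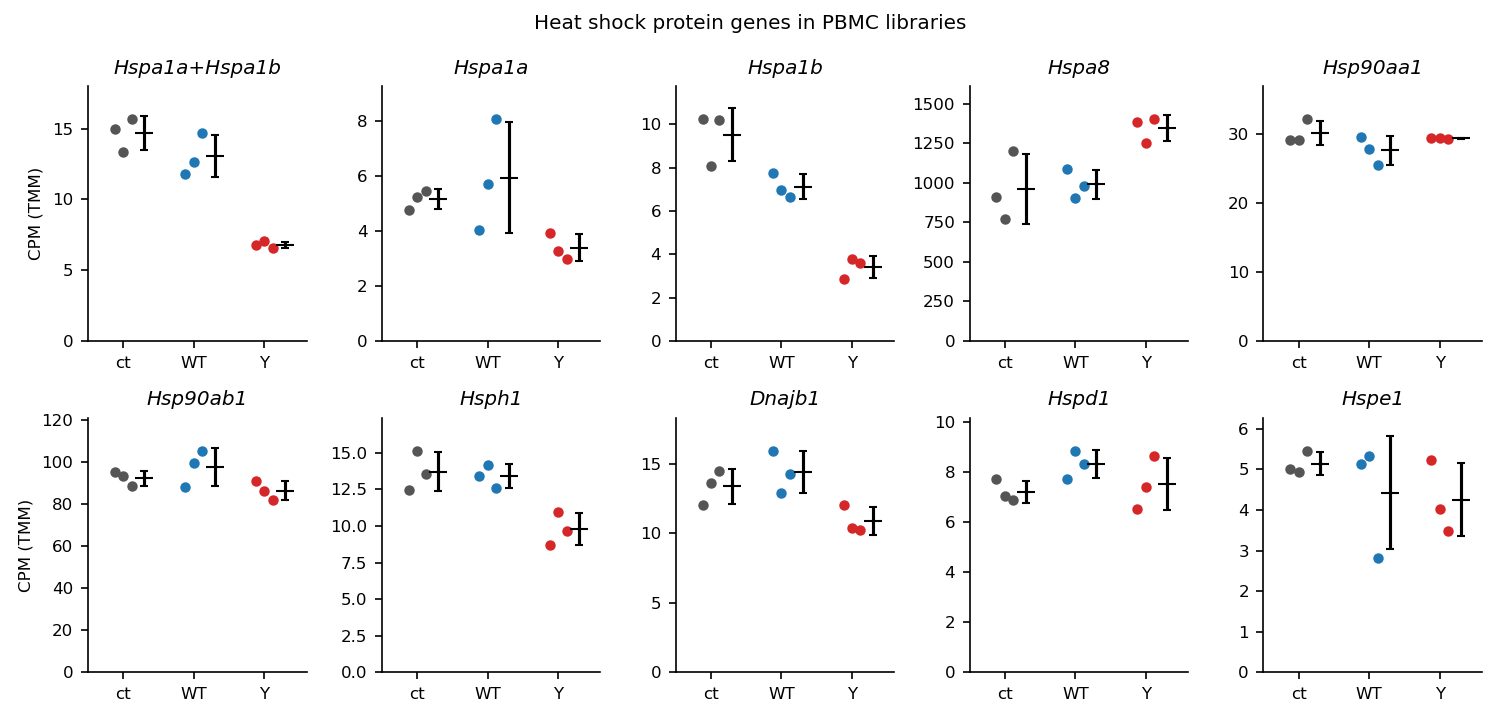
Level of each heat shock protein gene in the 9 PBMC libraries, in TMM-scaled CPM on axes that start at 0. Points are libraries of the groups ct, WT and Y, and the bars are the mean and SD (n = 3). The summed Hspa1a and Hspa1b level of the Y libraries is 6.58 to 7.03 CPM, below the 11.8 to 15.7 CPM of the other libraries, and Hspa8 is highest in Y.

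On the CPM scale Hsph1 and Dnajb1 were also lower in every Y library than in any ct or WT library, by smaller amounts. Hsph1, the HSP110 chaperone that acts as a nucleotide exchange factor for HSP70, stood at 12.5, 15.1 and 13.5 CPM in ct, 13.4, 14.2 and 12.6 in WT, then 8.73, 10.9 and 9.68 in Y. Its log2 fold change was −0.46 ± 0.12 for Y against ct and −0.44 ± 0.12 for Y against WT. Dnajb1, the J-domain protein that delivers clients to HSP70, stood at 12, 13.6 and 14.5 CPM in ct, 15.9, 12.9 and 14.3 in WT, then 12, 10.4 and 10.2 in Y, with log2 fold changes of −0.31 ± 0.13 and −0.42 ± 0.12. For Dnajb1 the highest Y value and the lowest ct value nearly touched. On the length-corrected TPM scale of the same tables, Dnajb1 was 0.9 to 1.0 in Y against 1.25 to 1.48 in the other libraries, while Hsph1 overlapped, with 1.12 TPM in Y replicate 2 against 1.02 in ct replicate 1 and 1.11 in WT replicate 1. Neither gene shares many 31-base words with other genes, 0% for Hsph1 and 0.444% for Dnajb1.

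Counting libraries, 4 of the 9 members (Hspa1a, Hspa1b, Hsph1 and Dnajb1) had every Y library below every ct and WT library in CPM, where 2.23% of 11635 genes tested did. In the opposite direction 1 member, Hspa8, had every Y library above the rest, against 1.91% of genes. At an adjusted p below 0.05 in edgeR, Hspa1b was called in Y against ct and in Y against WT, where 0.705% and 1.25% of genes were called, and no member was called in WT against ct, where 2.36% were. For that 0, an unadjusted p below 0.05 in edgeR was reached by 1 member and DESeq2 called 0. The share of all genes at that unadjusted threshold is not given. Because the members were selected with these values known, nothing is read from these counts and shares.

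The cytosolic HSP90 genes differed little between the groups in CPM. Hsp90aa1, the HSP90 form that stress can raise, stood at 29.1, 29.1 and 32.1 CPM in ct, 29.6, 27.9 and 25.5 in WT, then 29.5, 29.4 and 29.3 in Y. Hsp90ab1, the form made constitutively, stood at 95.4, 93.2 and 88.4 CPM in ct, 87.9, 99.7 and 105 in WT, then 90.8, 86.4 and 82.0 in Y. All 3 groups overlapped for both genes in CPM, and the log2 fold changes of both genes lay between −0.18 and 0.09 with SE of about 0.09. In TPM, Hsp90ab1 was 11.1, 10.95 and 11.1 in Y, below every ct (11.3 to 14.1) and WT (12.1 to 16.5) library. For Hsp90aa1, Y and WT overlapped in TPM (4.55 to 5.28 and 4.01 to 5.04), and every ct library (5.29 to 5.48) lay above both. Values of Hsp90aa1 are uncertain, since 51.5% of its 31-base words occur in other genes, and how many reads of those genes were assigned to it was not tested.

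The mitochondrial pair was measured at low counts. Hspd1, the HSP60 chaperonin, had 30 to 71 expected counts per library and stood at 7.73, 7.04 and 6.88 CPM in ct, 7.75, 8.87 and 8.34 in WT, then 6.55, 7.42 and 8.65 in Y. Hspe1, its HSP10 lid, had 20 to 47 counts and stood at 5.00, 4.94 and 5.46 CPM in ct, 5.13, 5.32 and 2.83 in WT, then 5.24, 4.03 and 3.49 in Y. The Y libraries overlapped the others for both genes. For WT against ct, Hspe1 had a log2 fold change of −0.19 ± 0.22, which became 0.03 without WT replicate 3, its lowest library.

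**Figure D2:**
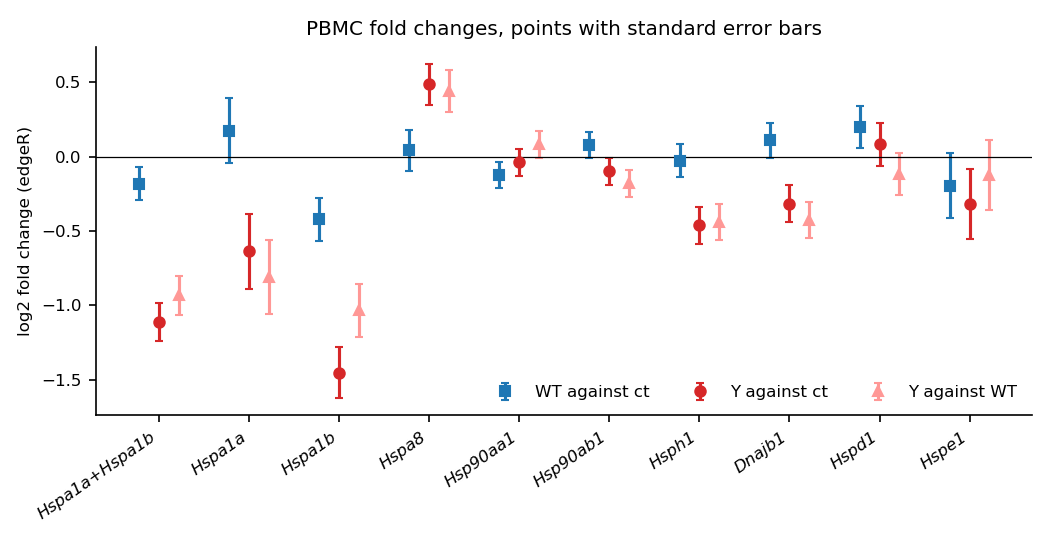
edgeR log2 fold changes of the heat shock protein genes for the 3 PBMC comparisons, with SE bars. The sum of Hspa1a and Hspa1b lies at −1.11 for Y against ct, Hspa8 at 0.49, and the HSP90 genes near 0.

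Hspa8, the constitutive HSC70 chaperone, was the most abundant member, and the only one whose 3 Y libraries all lay above the rest in CPM. It stood at 912, 769 and 1202 CPM in ct, 1088, 904 and 978 in WT, then 1385, 1253 and 1402 in Y. Its log2 fold change was 0.49 ± 0.14 for Y against ct and 0.44 ± 0.14 for Y against WT, and for Y against ct it ran from 0.35 without ct replicate 2 to 0.69 without ct replicate 3. The closest libraries were ct replicate 3 and Y replicate 2. On the length-corrected TPM scale of the same tables, Hspa8 was 103, 77.2 and 112 in ct, 103, 107 and 90.9 in WT, then 116, 110 and 126 in Y. Every Y library still lay above every WT library there, while Y and ct overlapped through ct replicate 3.

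The gap between the scales goes with the length of the Hspa8 transcripts that RSEM weighted. Hspa8 (chr9:40800984-40810087, plus strand) hosts the small nucleolar RNA genes Snord14c, Snord14d and Snord14e at chr9:40803583-40803668, chr9:40803995-40804080 and chr9:40804748-40804837, whose products guide modification of ribosomal RNA. All 3 lie inside the last exon of Hspa8-208, a retained-intron transcript of 3158 bases, and the next longest transcript, Hspa8-201, has 2394 bases. The abundance-weighted Hspa8 length in the tables was above 2394 bases in every library, 2743 to 2962, which is possible only with a minimum share of Hspa8-208. That minimum was 55.5%, 45.7% and 62.7% of the Hspa8 TPM in ct, 60.5%, 61.4% and 53.7% in WT, then 74.4%, 69.2% and 73.4% in Y. Every Y library lay above every other library.

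The other Hspa8 transcripts, which include the protein-coding ones, therefore had an upper limit. It was 45.8, 41.9 and 41.7 TPM in ct, 40.7, 41.4 and 42.1 in WT, then 29.7, 34.0 and 33.4 in Y. On this limit the Y libraries were the lowest, while on total CPM they were the highest. Reads on the Snord14 genes themselves, summed, were 125, 94.8 and 134 CPM in ct, 131, 166 and 171 in WT, then 153, 127 and 143 in Y, and the Y libraries lay within the range of the others. Reads from the snoRNAs and from the retained intron cannot be told apart where they overlap. Gm15459, a copy that shares 38.6% of the 31-base words of Hspa8, held 2.13% to 4.32% of the Hspa8 count, and how many of its reads were assigned to Hspa8 was not tested.

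**Figure D3:**
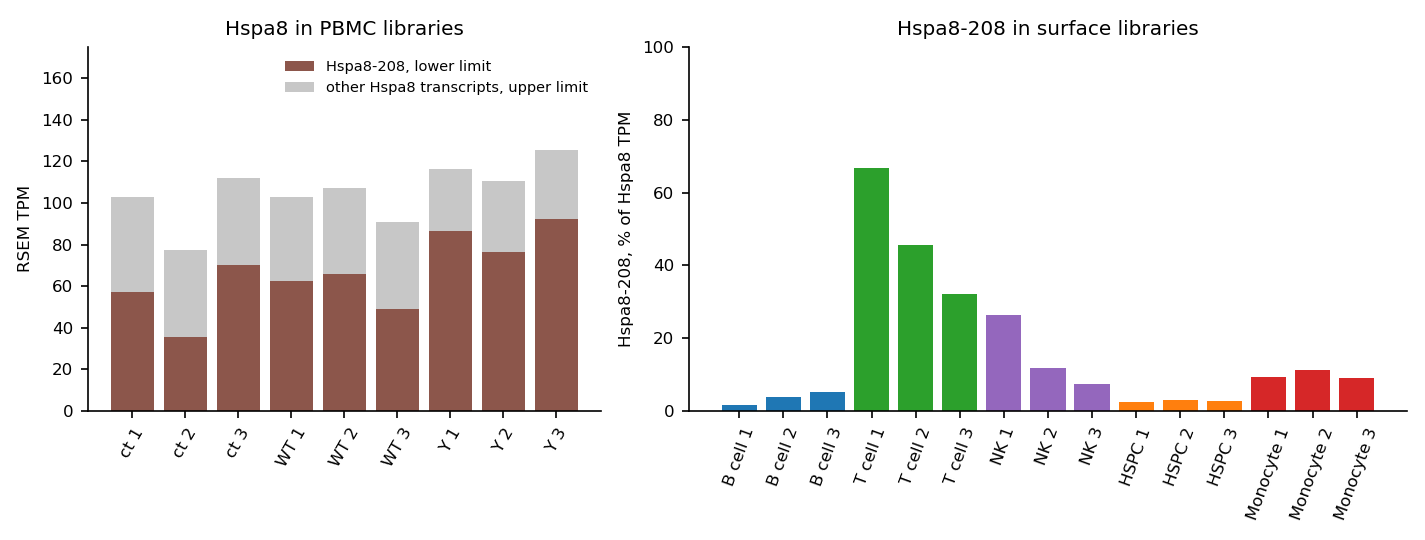
Left, RSEM TPM of Hspa8 in each PBMC library, divided into the lower limit for the retained-intron transcript Hspa8-208 and the upper limit for all other Hspa8 transcripts. Right, Hspa8-208 as a percentage of Hspa8 TPM in each surface library. The Y libraries have the smallest upper limit, 29.7 to 34.0 TPM, and the T cell libraries the largest Hspa8-208 share, 32.2% to 66.7%.

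Among chaperone genes outside the 9, 65 of 74 listed genes could be tested in PBMC. In WT against ct 2 were called, where 2.36% of all genes were, and in Y against WT 2 were called, where 1.25% were. Fkbp5, an HSP90 co-chaperone of the glucocorticoid receptor, stood at 12, 14.5 and 11.6 CPM in ct, 6.22, 5.57 and 6.79 in WT, then 11.6, 10.9 and 12 in Y. It fell in WT against ct (log2 fold change −1.03 ± 0.13, edgeR adjusted p = 0.00043) and was higher in Y than in WT (0.89 ± 0.14, edgeR adjusted p = 0.0026), with the WT libraries below all others. Over 15 alternative settings its adjusted p was 1.32e-08 to 0.0059 for WT against ct and 1.37e-05 to 0.0294 for Y against WT.

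Hspa5, the HSP70 of the endoplasmic reticulum, moved the other way. It stood at 56.6, 55.1 and 60.4 CPM in ct, 73.9, 67.1 and 75.5 in WT, then 52.2, 55.4 and 50.6 in Y. It was higher in WT than in ct (0.33 ± 0.08, edgeR adjusted p = 0.047) and lower in Y than in WT (−0.45 ± 0.08, edgeR adjusted p = 0.011). The first call was the less stable, holding in 4 of 15 alternative settings with adjusted p from 0.0386 to 0.198 and lost, with 1 listed gene then called, without each library other than ct replicate 3 and WT replicate 2, while the second held in 12 of 15 with adjusted p from 0.00133 to 0.0927. Leaving out WT replicate 3, Y replicate 1 or Y replicate 3 ended the second call, with 1 listed gene then called.

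No listed chaperone outside the 9 was called in Y against ct, where 0.705% of all genes were. At an unadjusted p below 0.05 in edgeR there were 7 of 65, 2 higher and 5 lower, and DESeq2 called 0. The share of all genes at that unadjusted threshold is not given, so nothing is read from the 7. The higher ones were Grpel1 and Sugt1. The lower ones were Cct3, Dnaja4, Dnajb6, Bag3 and Stip1, of which Bag3 and Stip1 were among the chaperones named in advance. Bag3, a nucleotide exchange factor of HSP70, was at −0.74 ± 0.29 (edgeR adjusted p = 0.47). Stip1, which links HSP70 to HSP90, was at −0.37 ± 0.16 (edgeR adjusted p = 0.5). The transcription factors Hsf1 and Hsf2 had log2 fold changes of −0.03 ± 0.12 and −0.26 ± 0.26. The median log2 fold change in Y against ct was −0.03 over the 65 other chaperones, −0.31 over the 9 members and −0.0044 over all genes, values that the selection of members shapes.

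Other gene lists moved with the same groups, and their part in the chaperone values was not tested. Immediate early genes, which cell handling often raises, summed to 863 to 961 CPM in ct, 1192 to 1240 in WT and 797 to 877 in Y, and 11 of 16 were called higher in WT than ct by edgeR, where 0.765% of all genes were, and 12 of 16 lower in Y than WT, where 0.817% were. Neutrophil markers, with all 6 listed genes found, summed to 75.1 to 90.0 CPM in ct, 68.8 to 75.6 in WT and 201 to 213 in Y. Haemoglobin and other erythroid markers summed to 6864 to 8234 CPM in ct, 4269 to 4955 in WT and 4438 to 5010 in Y, and platelet markers to 394 to 426, 252 to 276 and 313 to 314. NK cell markers summed to 30.1 to 31.6 CPM in ct, 39.5 to 42.7 in WT and 29.4 to 34.5 in Y, and monocyte markers to 221 to 255, 261 to 278 and 216 to 235. Both sums were thus highest in WT, as Hspa5 was. Ncr1 stood at 6.33 to 7.85 CPM in WT against 3.56 to 5.47 elsewhere and Ly6c2 at 13.5 to 14.3 against 7.36 to 9.85. Csf1r and Cd68 were also highest in WT without overlap. The NK markers Klrb1c, Gzma and Prf1 overlapped between WT and another group, as did the monocyte markers Lyz2 and Ccr2. Ccr2 was 16.1 to 18.5 CPM in WT and 15.1 to 20.1 in Y. B cell markers stayed within 130.0 to 143 CPM in all 9 libraries, and T cell markers within 124 to 150. Library totals ran from 4686387 to 9055761 counts, of which ribosomal RNA made 50.5% to 57.1%.

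The genes whose pattern was most like the summed Hspa1a and Hspa1b over the 9 PBMC libraries were Cdk10 (Pearson r = 0.95), Tsc22d3 (0.947), Larp1 (0.946), Txnip (0.939) and Cxcr4 (0.938). Among the members, Hsph1 was the most alike (r = 0.845), then Dnajb1 (0.736), and Hspa8 ran opposite (−0.745). These are descriptions on log2 CPM over libraries that share groups.

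In the surface libraries, deposited TPM of every member was highest in monocytes. This order did not hold for 6 of the 9 once the amount of protein-coding RNA was allowed for. Transcripts annotated as protein-coding made up 16.9% to 18.1% of the TPM in monocyte libraries, 2.00% to 2.88% in B cells, 0.645% to 1.52% in T cells, 1.49% to 2.96% in NK cells and 1.14% to 1.93% in HSPC. Each member is therefore given both as deposited TPM and rescaled so that the protein-coding transcripts of a library sum to 1000000. Summed cell type markers were highest under their own label for B, T and NK cells and monocytes, as was each listed gene in all its libraries except for 2 T cell markers. Cd4 was at most 0.0275 TPM in T cells against 0.170 to 0.323 in NK cells, and Cd3d reached 4.07 TPM in a monocyte library, within its T cell range of 1.61 to 4.54. The HSPC markers summed to 58.8 to 125 TPM in HSPC but to 254 to 391 in monocytes, mostly from Mpo, and the progenitor receptor Kit was as high in NK cells (4.10 to 10.2 TPM) as in HSPC (4.21 to 5.99). Neutrophil markers reached 1357 to 1456 TPM in monocytes against at most 51.7 elsewhere. Immediate early genes summed to 2136 to 2482 TPM in monocytes against 39.3 to 319 elsewhere, and the part of these in the member values was not tested.

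Inducible HSP70 RNA was very low outside monocytes. The sum of Hspa1a and Hspa1b was 6.36, 6.66 and 10.3 TPM in monocytes and 0.0142 to 0.255 TPM in the other 12 libraries, where Hspa1a was listed at 0 in T cell replicates 1 and 2 and Hspa1b in HSPC replicate 2. On the rescaled values it was 35.9, 39.4 and 56.9 in monocytes and 10.9, 10.2 and 6.17 in NK cells. Monocytes remained above NK cells, and NK cells above B cells (2.39 to 6.02), while T cells and HSPC overlapped B cells.

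Hspa8 was the most abundant member in monocytes. It stood at 302, 290 and 315 TPM in monocytes, 20.5, 42.2 and 57.9 in NK cells, 27.1, 47.8 and 35 in HSPC, 37.3, 21.9 and 18.6 in B cells, and 9.19, 19.8 and 15.9 in T cells. Monocytes lay far above the rest, and neighbours in the order among the other 4 overlapped. On the rescaled values the order changed, with means of 2331 in HSPC, 1717 in monocytes, 1674 in NK cells, 1350 in T cells and 1055 in B cells. HSPC lay above monocytes without overlap, monocytes overlapped NK cells, NK cells overlapped T cells, and T cells lay above B cells. That last order turned when only transcripts annotated as protein-coding were counted, an alternative chosen after seeing the data, with 205, 323 and 455 in T cells, below the 795 to 990 of B cells and all other groups.

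The HSP90 genes kept this contrast between scales. Hsp90aa1 stood at 66.8, 68.3 and 81.0 TPM in monocytes, 16.7, 31.1 and 21.9 in HSPC, 13.5, 21.9 and 32.2 in NK cells, 11.8, 17.3 and 12.9 in B cells, and 2.10, 5.02 and 5.58 in T cells. Hsp90ab1 stood at 94.9, 126 and 111 TPM in monocytes, 35.5, 42.1 and 42.4 in B cells, 18.3, 27.7 and 43.1 in NK cells, 24.5, 33.0 and 31.3 in HSPC, and 5.16, 11.6 and 12.5 in T cells. T cells were lowest for both on this scale, with no overlap with the group above. On the rescaled values, Hsp90aa1 averaged 1470 in HSPC against 409 in monocytes, and Hsp90ab1 averaged 1925 in HSPC against 631 in monocytes, the lowest group for it when all transcripts are summed. On coding transcripts only, T cells were lowest for Hsp90ab1, at 338, 390 and 523 against 521, 689 and 601 in monocytes, so that these groups overlapped, and HSPC averaged 1490.

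**Figure D4:**
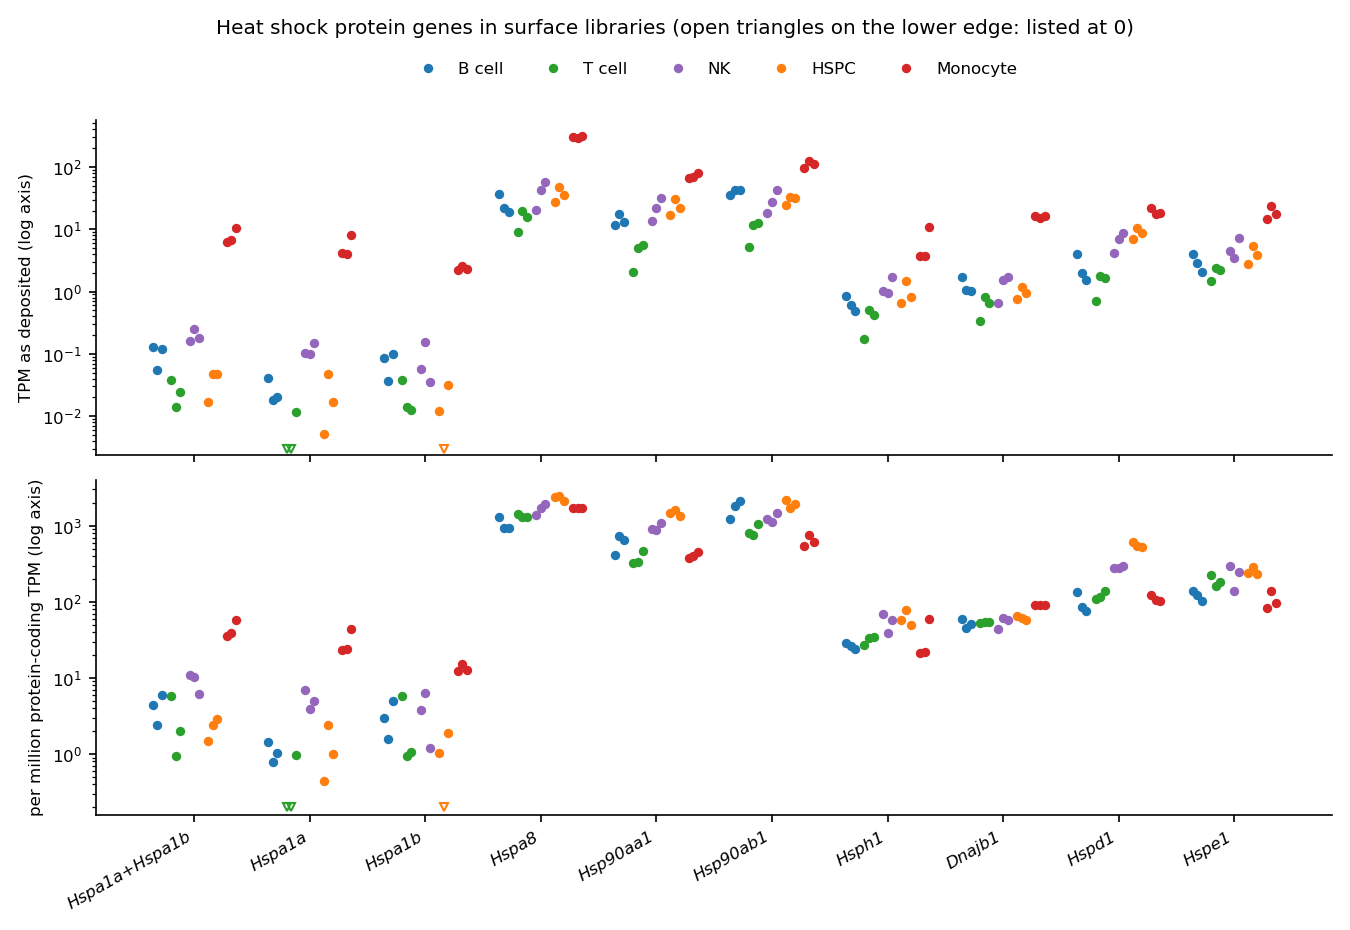
Level of each heat shock protein gene in the 15 surface libraries on log axes, as deposited TPM (top) and rescaled by the TPM on protein-coding transcripts (bottom). Points are libraries coloured by cell type and open triangles mark a gene listed at 0. Monocytes are highest for every gene in the top panel, and in the lower panel HSPC lie above them for Hspa8, Hsp90aa1, Hsp90ab1, Hspd1 and Hspe1.

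On the rescaled values, but not in deposited TPM, the mitochondrial genes averaged highest in HSPC. Hspd1 stood at 22.1, 17.7 and 18.4 TPM in monocytes, 6.94, 10.5 and 8.57 in HSPC, 4.19, 6.90 and 8.84 in NK cells, 3.94, 2.01 and 1.52 in B cells, and 0.704, 1.76 and 1.66 in T cells. On the rescaled values it averaged 559 in HSPC and 286 in NK cells, each above all groups that follow without overlap, then 121 in T cells, 110 in monocytes and 99.5 in B cells, which overlapped. Hspe1 ranged from 14.7 to 23.8 TPM in monocytes and from 1.46 to 7.29 in the other cell types. Among these it averaged 5.05 TPM in NK cells and 4.00 in HSPC, which overlapped. On the rescaled values Hspe1 averaged 252 in HSPC, overlapping NK cells at 227, and 107 in monocytes.

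Dnajb1 and Hsph1 were low outside monocytes. Dnajb1 stood at 16.1, 15.3 and 16.3 TPM in monocytes and 0.336 to 1.72 in the other 12 libraries, and on the rescaled values it stayed higher in monocytes, 90.0 to 91.1 against 43.7 to 65.9. Hsph1 stood at 3.76, 3.70 and 10.9 TPM in monocytes and at most 1.73 elsewhere, and on the rescaled values monocytes overlapped the others. Monocyte replicate 3 was high for Hsph1 and for the HSP70 sum.

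The limma fit used genes above 5 TPM in at least 3 libraries, and 6 of the 9 members passed, Hspa1a, Hspa1b and Hsph1 not. Dnajb1 exceeded 5 TPM in 0, Hspe1 in 2 and Hspd1 in 5 of the 12 libraries of the other cell types, and Hsp90aa1 in 11. Dnajb1 and Hspe1 thus passed through the monocytes, and where counts of members called follow beside the share of all genes, nothing is read from them. On log2(TPM + 1), the monocyte difference from the mean of the other 4 cell types was 3.48 ± 0.32 (SE) for Hspa8, 3.09 ± 0.16 for Dnajb1 and 2.07 to 2.38 for the other 4, where the median was 2.72 over the 7807 genes past the filter, of which 1982 pass without the monocytes, and 0.34 over all 33967 genes without it. After rescaling to protein-coding TPM, Hsp90aa1, Hsp90ab1, Hspd1 and Hspe1 were at −0.86, −1.13, −0.91 and −0.84, where the median over 11892 genes was 0.16.

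Chaperones outside the 9 were tested with the same limma fit, 53 of 74 passing the filter. In monocytes 53 of 53 were called higher, where 95.7% of 7807 genes were called and 92.1% called higher, and only 10 of the 53 exceeded 5 TPM in 3 or more libraries of the other cell types, so that the rest passed the filter through the monocytes. Of the 53, 38 exceeded 5 TPM in no library of another cell type. Leaving out any 1 monocyte library left 15 to test, of which 15 were called, where 2275 to 2285 of 2633 or 2638 genes were. Rescaled to protein-coding TPM, where 57.6% of 11892 genes were called, 34.4% higher and 23.2% lower, 19 of 69 were higher and 15 lower. The higher ones included Bag3 (1.63 ± 0.23), Hsf2 (2.03 ± 0.28) and Hsp90b1, the HSP90 of the endoplasmic reticulum (1.07 ± 0.17), and the lower ones Cct4, a subunit of the cytosolic TRiC chaperonin (−1.79 ± 0.14), and Hsf1 (−0.82 ± 0.15). Of the 9 members 3 were called higher and 4 lower there.

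On the deposited scale T cells had most of these genes called lower. Compared with the mean of B cells, NK cells and HSPC, T cells had 34 of 53 called lower on log2(TPM + 1), where 58.3% of genes were called and 51.2% called lower. Of the TRiC subunits 7 of 8 were lower, with Cct2 at −1.12 ± 0.24 and Tcp1 at −1.11 ± 0.26. The count was 16 without T cell replicate 1 and 11 of 15 tested without any 1 monocyte library. All genes called went from 4552 of 7807, 558 of them higher, to 2488 of 7775 without T cell replicate 1, 537 of them higher. Without any 1 monocyte library 1667 to 1674 of 2633 or 2638 were called, 514 to 517 of them higher. Rescaled to protein-coding TPM, where 46.4% were called, 28.3% lower and 18% higher, 24 of 69 were lower and 9 higher. Dnaja1 (1.26 ± 0.14) was among the higher ones. Of the 8 TRiC subunits 5 were then lower and 1 higher. Members called there were 4 lower of 9.

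In HSPC against the mean of B, T and NK cells, 6 of 53 were called higher and 3 lower, where 33% of genes were called, 9.52% higher and 23.5% lower. The higher ones were Hspa9, the mitochondrial HSP70 (0.74 ± 0.24), Trap1, the mitochondrial HSP90 (0.59 ± 0.21), Fkbp4, Ptges3, Ahsa1 and Bag1. Leaving out a library moved the higher count to between 0 and 9, with 0 without HSPC replicate 2, 1 without HSPC replicate 3 or any monocyte library, 2 without B cell replicate 2 or 3 or T cell replicate 3, and 3 without NK replicate 2. The lower count moved to between 0 and 8. It was 0 without HSPC replicate 1 and 1 without HSPC replicate 3, B cell replicate 2 or NK replicate 2. It was 5 without T cell replicate 1 and 8 without NK replicate 1. All genes called higher went from 743 of 7807 to 419 of 7803 without HSPC replicate 2 and 484 of 7804 without HSPC replicate 3. Calls in either direction went from 2576 of 7807 to 1937 of 7805 without HSPC replicate 1 and 3276 of 7775 without NK replicate 1. Rescaled, where 52.5% were called, 28% higher and 24.6% lower, 29 of 69 were higher and 8 lower, the higher ones including 6 of 8 TRiC subunits and Hspa9 (1.32 ± 0.17). Of the members 6 of 9 were called higher, with Hspd1 at 1.89 ± 0.15 and Hsp90aa1 at 1.32 ± 0.16.

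B cells and NK cells gave fewer calls than T cells on the deposited scale. In B cells 8 of 53 were called higher, led by Bag6 (1.31 ± 0.31), and 1 lower, Bag3 (−0.39 ± 0.10), where 38.5% of genes were called, 28.4% higher and 10.2% lower. The higher count was 2 without B cell replicate 1 or 2, 5 without HSPC replicate 1 and 3 without any monocyte library. The lower count was 2 without NK replicate 1 and 0 without any monocyte library. All genes called higher in B cells went from 2214 of 7807 to 1520 of 7738 and 1416 of 7736 without B cell replicates 1 and 2. They were 1939 of 7805 without HSPC replicate 1 and 1041 to 1063 of 2633 or 2638 without a monocyte library. Rescaled, where 50.4% were called, 18.8% higher and 31.6% lower, 4 of 69 were higher and 27 lower, and 5 members were lower. In NK cells 7 of 53 were called higher, with Dnajb6 at 1.03 ± 0.27 and Hspa5 at 0.98 ± 0.27, where 23.5% of genes were called and 22.4% called higher. That count was 29 without NK replicate 1 and 2 without NK replicate 2, NK replicate 3 or any monocyte library. All genes called higher in NK cells went from 1750 of 7807 to 4253 of 7775 without NK replicate 1. They were 732 of 7773 without NK replicate 2 and 670 of 7774 without NK replicate 3. Without any 1 monocyte library they were 749 to 769 of 2633 or 2638. Rescaled, where 25.8% were called, 21.4% higher and 4.34% lower, 13 of 69 were higher and 1 lower, and 3 members were higher.

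The transcripts to which Hspa8 TPM was assigned in the surface libraries also differed between cell types. Retained-intron transcripts made up 36.2% to 67.9% of Hspa8 TPM in T cells, 12.9% to 30.6% in NK cells, 10.8% to 12% in monocytes, 6.1% to 6.4% in HSPC and 2.3% to 9.8% in B cells. T cells lay above all other groups, and Hspa8-208 alone made up 66.7%, 45.5% and 32.2% of Hspa8 in their 3 libraries. Snord14d, which lies inside that transcript, was listed at 628, 508 and 411 TPM in T cells, 264, 187 and 169 in NK cells and at most 72.3 TPM in the other 9 libraries. Snord14c was likewise highest in T cells (283 to 521 TPM), but Snord14e was 83.2, 120.5 and 176 TPM in monocytes, overlapping both T cells (134 to 311) and NK cells (41.4 to 94.0). As a level rather than a share, Hspa8-208 was highest in monocytes, at 27.7 to 32.5 TPM against 5.11 to 9.01 in T cells. Reads of the snoRNAs and of the host transcript overlap and cannot be told apart there, so the origin of the Hspa8-208 values was not settled.

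Hsp90ab1 showed another order. Its retained-intron share was 48.3% to 57.8% in T cells, 21.5% to 61.3% in B cells, 29.2% to 44.7% in NK cells, 7.2% to 32.7% in HSPC and 2.0% to 4.6% in monocytes, below all other groups. For Hsp90aa1 the share was largest in 2 of 3 B cell libraries, at 59.0% and 61.2%, with 16.5% in the remaining one. A sum over transcripts therefore holds unequal parts of coding RNA in different cell types.

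On coding transcripts only, the same limma fit over 11255 genes called 3 members higher and 4 lower in monocytes, where 58.8% of genes were called, 40.6% higher and 18.2% lower. In T cells 6 members were lower, where 48.6% were called and 35% called lower. In B cells 3 were lower, where 47.9% were called and 28% called lower. In NK cells 3 were higher, where 23.7% were called and 19.1% called higher. In HSPC 6 were higher, where 52.4% were called and 31.5% called higher. The T cell difference of Hspa8 was −1.76 ± 0.21 on this scale.

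**Figure D5:**
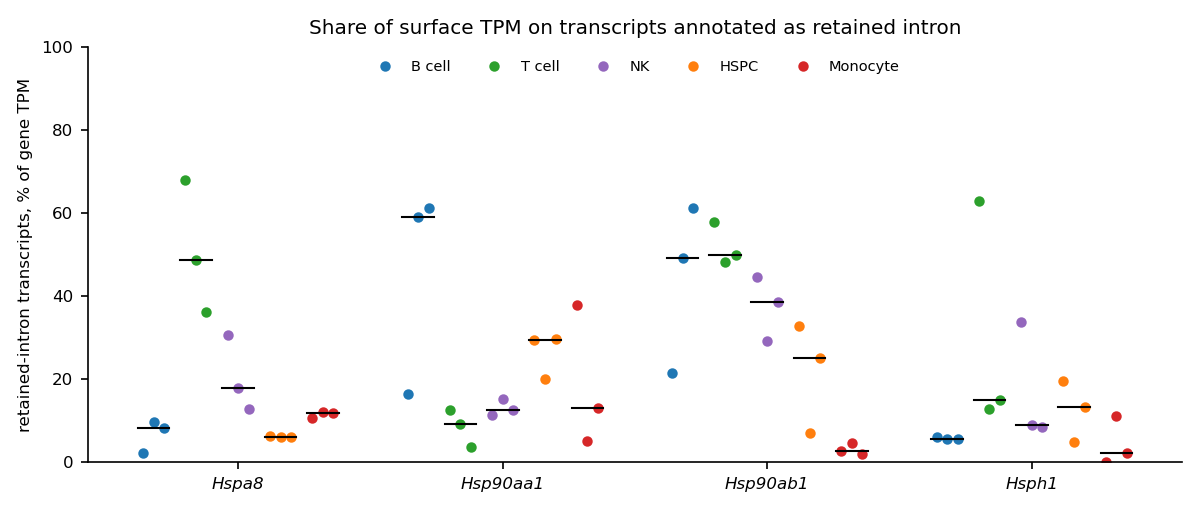
Share of a gene's TPM on transcripts annotated as retained intron, in percent, for Hspa8, Hsp90aa1, Hsp90ab1 and Hsph1 in each surface library. Points are libraries coloured by cell type and the lines are group medians. T cells have the largest shares for Hspa8, 36.2% to 67.9%, and monocytes the smallest for Hsp90ab1, 2.0% to 4.6%.

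Over the 15 surface libraries, the genes most like Hspa8 in log2(TPM + 1) were Dnmt1 and Ddx21 (Pearson r = 0.997 each), Paics (0.996), Hnrnpa1 and Ganab (0.995 each). The most alike members were Hspe1 (0.969) and Dnajb1 (0.967). All share the gap between monocytes and the other cell types, and the values are a description.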

How the data were processed

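RNA was measured in 9 PBMC and 15 surface libraries of mouse cells. For PBMC, the authors deposited RSEM expected counts per gene with TPM and abundance-weighted lengths, and their processing notes name Trim Galore, STAR, featureCounts and RSEM with mm10 and hg38. For surface libraries, the authors deposited Kallisto TPM per transcript, which keep no depth, and the notes name cutadapt, STAR, featureCounts and kallisto with mm10. Surface TPM were summed by gene name, since retained-intron and noncoding transcripts carry the same name as coding ones.

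Expected counts were rounded and tested in edgeR 4.0.16 (quasi-likelihood, TMM, filterByExpr, 1 fit of 9 libraries, 11635 genes). Surface values were tested as log2(TPM + 1) in limma 3.58.1 with a trend, on genes above 5 TPM in at least 3 libraries, in 1 fit of 15 libraries. Fold changes on that scale understate low genes. Adjusted p-values are Benjamini-Hochberg over all genes tested, with calls at 0.05, in R 4.3.3. As an alternative, TPM were rescaled to the library's sum over protein-coding transcripts, for the 17898 genes that have such a transcript. Other alternatives were DESeq2 1.42.0, other scaling and filters, a pseudocount of 0.1, a replicate block, and leaving out each library. Counting only transcripts annotated as protein-coding was added after seeing the data.

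On simulated counts for Y against ct, edgeR recovered 93 of 100 genes changed 2-fold and 98 of 100 changed 4-fold among 11635, and called 10 unchanged genes. Every simulated gene had the same dispersion, and no changed gene was drawn from the lowest levels. These rates may therefore be too high for genes with low counts or a wide spread. Transcript and gene positions and 31-base words were taken from GENCODE M21, which holds 54587 of the 55335 PBMC gene identifiers with version, and upstream windows from RefSeq (GRCm38.p6). Named genes were the 9 members, called genes of the chaperone lists (up to 6 per list and direction, largest change first), a fixed set of well-known chaperones, and the 5 genes most like the HSP70 sum or Hspa8. Members and lists were chosen with earlier results of these data known.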

Additional observations from a re-analysis of the deposited data

How the results depend on the processing

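The summed Hspa1a and Hspa1b kept its direction in the 3 comparisons under every alternative run. Leaving out each library moved its log2 fold change from −1.17 to −1.05 for Y against ct, from −1.0 to −0.84 for Y against WT and from −0.26 to −0.10 for WT against ct. The count of other chaperones called in WT against ct was 2 and became 1 with DESeq2, without the count filter, with the replicate block, with only the 6 libraries of the comparison, and without any of ct replicates 1 and 2, WT replicates 1 and 3 and the Y replicates (range 1 to 2). Members called in Y against ct went from 1 to 2 without the filter and without ct replicate 3. All genes called there went from 82 of 11635 to 257 of 29571 and 167 of 11900. In Y against WT members called went from 1 to 3 without the filter and to 2 with only 6 libraries. They were also 2 without ct replicate 3 or WT replicate 1. All genes called there went from 146 of 11635 to 366 of 29571, 186 of 11088, 170 of 11900 and 148 of 11902, in this order. Nothing is read from the member counts. With each library left out, both member counts ranged from 1 to 2, as did that of other chaperones in Y against WT. In Y against ct other chaperones stayed at 0 and in WT against ct members at 0 with every library left out.

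Rescaling to protein-coding TPM gave 19 higher and 15 lower chaperones in monocytes, 4 and 27 in B cells, 13 and 1 in NK cells, 29 and 8 in HSPC, with 9 and 24 in T cells. It turned the monocyte values of Hsp90aa1 to −0.86, Hsp90ab1 to −1.13, Hspd1 to −0.91 and Hspe1 to −0.84, and the T cell value of Hspe1 to 0.0058. Members not called on the deposited scale also changed sign, in B cells Hsp90aa1 from 0.11 to −0.46, which was called, and Dnajb1 from 0.23 to −0.12, in NK cells Hsp90ab1 from 0.32 to −0.16 and Dnajb1 from 0.24 to −0.04, and in HSPC Dnajb1 from −0.04 to 0.21. Counting coding transcripts only, chosen after seeing the data, gave 22 higher and 9 lower chaperones in monocytes, 5 and 22 in B cells, 11 and 2 in NK cells, 35 and 5 in HSPC, with 7 and 30 in T cells. It turned the monocyte values of Hsp90aa1 to −0.74, Hsp90ab1 to −0.43, Hspd1 to −0.91 and Hspe1 to −0.85, and the T cell value of Hspe1 to 0.018. Without monocytes in the fit only 10 chaperones could be tested, with 1 higher and 0 lower in B cells, 7 lower in T cells, 2 higher in NK cells, and 0 higher and 1 lower in HSPC. Testing all genes without the filter gave 2 higher in B cells and 2 higher in HSPC, and a pseudocount of 0.1 gave 2 lower in B cells. Leaving out each library gave 15 to 53 higher and 0 to 0 lower in monocytes, 2 to 9 and 0 to 2 in B cells, 2 to 29 and 0 to 0 in NK cells, 0 to 9 and 0 to 8 in HSPC, with 0 to 0 and 11 to 43 in T cells. The cause of these changes was not tested, apart from the smaller number of genes without monocytes.

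The labels do not say that a replicate number marks a shared animal or day. Deviations of libraries with the same number correlated from −0.06 to 0.06 in PBMC. On surfaces they correlated at 0.52, 0.26 and 0.41 in the 3 pairs of T and NK cell libraries. Pairs of T and NK cell libraries with different numbers ran from −0.44 to 0.15. Same-numbered libraries of any other 2 cell types ran from −0.28 to 0.13. With different numbers, B cell replicate 3 and T cell replicate 1 reached 0.27. Replicate 1 also had the smallest protein-coding share among T cells, 0.645%, and among NK cells, 1.49%. Whether the numbers pair T and NK cells therefore cannot be told from these values. With the replicate block 36 chaperones were lower in T cells and 8 higher in NK cells, and apart from the count in WT against ct above, the block moved no count of calls by more than 1.5 times. Low counts limit Hspa1a, Hspa1b, Hspd1 and Hspe1 in PBMC, and the depth of the surface libraries is unknown.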
